A study of Mus musculus with 8 samples.

Results

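The vascular, blood and microglial genes are 39 genes that mark the cells other than neural cells found inside the embryonic brain. They were chosen by symbol for their cell type and fall into 15 endothelial, 5 pericyte, 7 erythroid and 12 microglial genes. A probe of the array was matched to 37 of the 39, out of 17178 symbols matched in all, and Tal1 and Ahsp had no matched probe. The 37 genes were represented by 52 of 41174 probes, and 51 of these probes were tested.

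Expression was measured in medial ganglionic eminence (MGE), the ventral forebrain region that makes GABAergic interneurons, dissected at embryonic day 13.5 from C57BL/6 mice, with 4 WT and 4 Nkx2-1cKO samples on 8 one-colour Agilent arrays. The labels give the WT genotype as Nkx2-1flox/+;Olig2tva-cre- and the Nkx2-1cKO genotype as Nkx2-1flox/+;Olig2tva-cre+, so that by the labels every sample carried a floxed and an unfloxed Nkx2-1 allele. The study's methods list a strain carrying Nkx2-1f/f among those used and do not give the genotype of the embryos. Cre was expressed from the Olig2 locus, a gene of ventral neural progenitors. The endothelial, pericyte, erythroid and microglial cells are not known to arise from those progenitors. Whether Cre acted in them was not tested. The labels do not say whether the samples came from separate embryos or from pools, so p-values measure the spread between these samples, which may in part be technical.

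The vessels of the embryonic brain grow in from a plexus around the neural tube. Neural progenitors secrete VEGF, endothelial cells respond through VEGF receptors, and pericytes are recruited to the new vessels by PDGF-B. Endothelial cells of the brain acquire tight junctions and nutrient transporters early, as the blood-brain barrier forms. At this age the blood inside the vessels still carries erythroid cells of the yolk sac lineage that transcribe globin and haem synthesis genes. Microglia, the resident macrophages of the brain, also come from the yolk sac, enter before birth and depend on the receptor CSF1R. In dissected tissue, a difference in the number of cells of one of these types cannot be told apart from a difference in RNA per cell.

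Levels are given as the log2 of the processed intensity relative to the 75th percentile of the same array, so 0 is a bright probe and each unit is a doubling, and a level is compared only with the level of the same probe on other arrays. The targeted gene, Nkx2-1, was at 1.87, 1.95, 1.82 and 1.85 on the 4 WT arrays and at -4.26, -4.58, -4.67 and -4.35 on the 4 Nkx2-1cKO arrays, a log2 fold change of -6.34 (adjusted p = 4.77e-09). Whether its probe lies in the deleted part of the gene was not determined. Lhx6 and Lhx8, markers of MGE-derived neurons, had log2 fold changes of -4.20 and -3.67 (adjusted p = 5.22e-07 and 5.23e-06), and the ventral forebrain genes Dlx1 and Dlx2 were above background on all 8 arrays with log2 fold changes of -0.39 and -0.29, neither past the threshold. On the WT replicate 1 array dim probes were brighter than elsewhere. The lowest signal among its probes well above background was -5.64, against -7.15 to -6.75 on the other arrays, and it held the highest value for 37% of all tested probes.

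None of the vascular, blood and microglial genes passed the test between Nkx2-1cKO and WT. All 37 genes with a probe were well above background on all 8 arrays, and 0 of 37 passed an adjusted p of 0.05 in limma, in either direction, where 1.04% of all 31283 tested probes did. An unadjusted p below 0.05 was reached by 0 of 37 genes, against 8.62% of all tested probes. The 4 Nkx2-1cKO values lay apart from the 4 WT values for 0 of 37 genes, against 6.45% of probes measured on every array. Of the 37 genes, 20 were higher and 17 lower in Nkx2-1cKO, with log2 fold changes from -0.37 for Gata1 to 0.31 for P2ry12. The median over the members was 0.02, and the median over all tested probes was -0.04. With centring on the median of each array, or with normexp background correction, 30 of the 37 were higher and 7 lower, and the median of all tested probes was then 0.08 or 0.18.

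The intervals show how large a difference could have been missed by the brightest probe of each gene, with the scaling as reported. Dim further probes of some members had intervals that reached past a halving, such as -2.25 to 0.07 for Sox17 and -2.01 to 0.63 for Cx3cr1. The 95% confidence interval of the log2 fold change stayed within a doubling and a halving for 35 of the 37 genes, and within 0.5 on either side of 0 for 27 of them. The exceptions to the wider bound were Gata1, with an interval from -1.21 to 0.48, and Itgam, with an interval from -1.34 to 0.74. The number of arrays limits this precision.

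**Figure D1:**
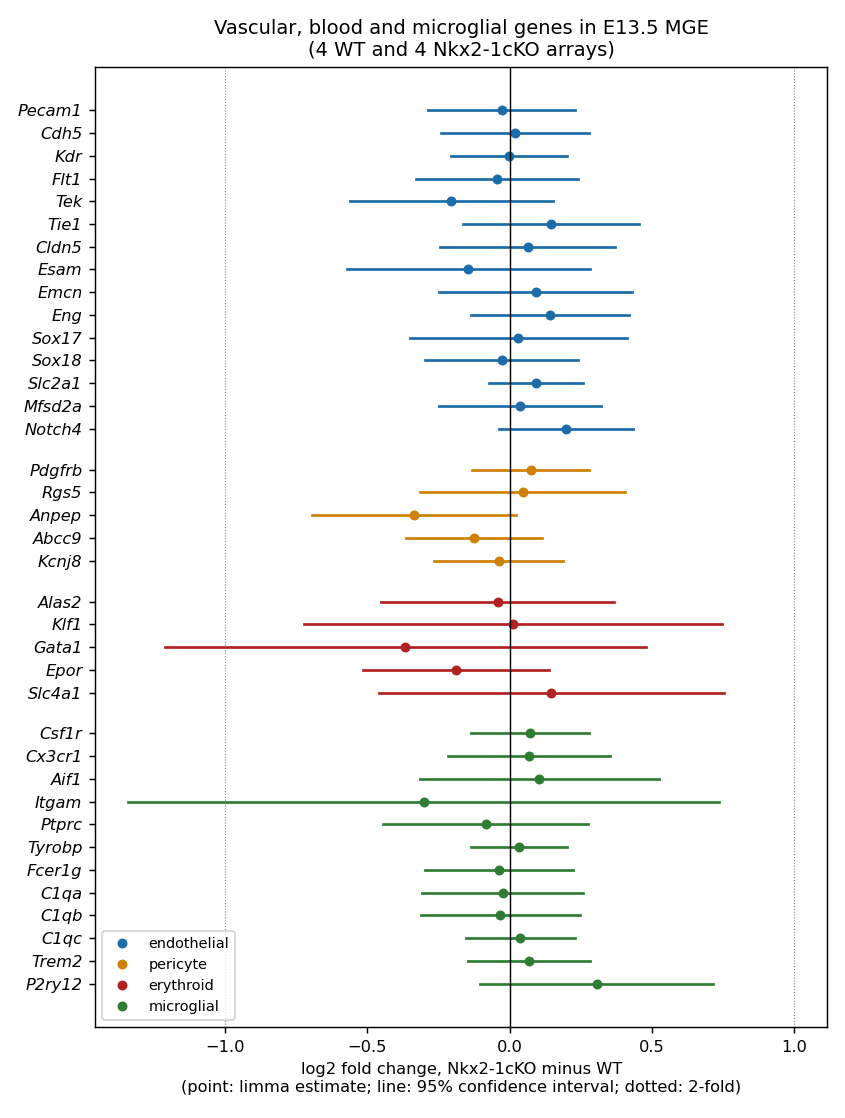
Log2 fold change of each of the 37 genes, Nkx2-1cKO minus WT, on the x axis, with genes on the y axis coloured by cell type; points are limma estimates and lines their 95% confidence intervals, from 4 WT and 4 Nkx2-1cKO arrays. Every interval includes 0, and only those of Gata1 and Itgam reach past a log2 fold change of -1.

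The 15 endothelial genes had a median log2 fold change of 0.03, with 9 higher and 6 lower in Nkx2-1cKO, and 0.15 with centring on the median. Their range ran from -0.20 for Tek to 0.20 for Notch4, and all 15 intervals lay between -0.57 and 0.45. No endothelial gene had an unadjusted p below 0.05.

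Cldn5 encodes the main claudin of endothelial tight junctions in the brain. Its level was 2.25, 2.68, 2.60 and 2.90 on the WT arrays and 2.68, 2.49, 2.87 and 2.64 on the Nkx2-1cKO arrays, and the groups overlapped throughout. This gave a log2 fold change of 0.06 (95% confidence interval -0.24 to 0.37). Slc2a1, the glucose transporter of the barrier, which neural cells also express, had the narrowest interval of the 15, -0.07 to 0.26 around 0.09. Mfsd2a, a lipid transporter of barrier endothelium, averaged 1.92 ± 0.09 in WT and 1.95 ± 0.27 in Nkx2-1cKO (mean ± SD of 4 arrays here and below), with an estimate of 0.04.

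Among the receptors, Kdr, which encodes VEGF receptor 2 and carries the main growth signal to sprouting endothelium, differed least of all members. It was at 0.01, -0.22, -0.17 and -0.12 in WT and at -0.26, -0.11, -0.13 and -0.02 in Nkx2-1cKO, a log2 fold change of 0.00 with an interval from -0.20 to 0.20. The VEGF-binding receptor Flt1 averaged -1.11 ± 0.24 in WT and -1.16 ± 0.08 in Nkx2-1cKO, and its log2 fold change was -0.05. Tek, the angiopoietin receptor TIE2, had the lowest estimate among the endothelial genes. Its values were -2.23, -1.77, -2.06 and -1.52 in WT and -1.93, -2.04, -2.21 and -2.22 in Nkx2-1cKO. The 2 highest values were the WT arrays of slide 2 and the other 6 arrays overlapped, so the log2 fold change of -0.20 (-0.56 to 0.15, adjusted p = 0.686) was 0.01 on slide 1 and -0.42 on slide 2. Without WT replicate 4, the highest array, it was -0.08. Tie1, the orphan partner of TIE2, had a log2 fold change of 0.15 (-0.16 to 0.45), and Eng, a co-receptor for BMP9 and TGF-beta, one of 0.14 (-0.13 to 0.42).

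Notch4, a Notch receptor largely restricted to endothelium, had the highest estimate among the endothelial genes. It was at -0.27, -0.15, -0.25 and 0.02 in WT and 0.14, -0.14, 0.18 and -0.03 in Nkx2-1cKO. WT replicate 4 and Nkx2-1cKO replicates 2 and 4 fell in the overlap between the groups. The log2 fold change of 0.20 (-0.04 to 0.43) had an adjusted p of 0.629, was 0.18 on slide 1 and 0.22 on slide 2, and had its lowest adjusted p, 0.270, with slide as a block (range over the alternatives 0.270 to 0.949).

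The adhesion and transcription factor genes of endothelium had estimates between those of Tek and Notch4. Pecam1, which encodes the junction protein CD31, averaged -2.39 ± 0.17 in WT and -2.42 ± 0.09 in Nkx2-1cKO. Cdh5, the gene of VE-cadherin, averaged -1.37 ± 0.19 and -1.35 ± 0.11. Their log2 fold changes were -0.03 and 0.02. Esam, an endothelial junction adhesion molecule, had the widest interval of the 15 genes, -0.57 to 0.28 around -0.14, and Emcn, a sialomucin of the capillary surface, had a log2 fold change of 0.09 (-0.25 to 0.43). The transcription factors Sox17 and Sox18, which act in arterial and lymphatic specification, had log2 fold changes of 0.03 and -0.03. A dim further probe of Sox17, well above background on 3 of 4 WT and 1 of 4 Nkx2-1cKO arrays, gave -1.09 (adjusted p = 0.601).

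The 5 pericyte genes had a median log2 fold change of -0.04, with 2 higher and 3 lower in Nkx2-1cKO, and the median was 0.08 with centring on the median or with normexp. Pdgfrb, the receptor through which PDGF-B recruits pericytes, was at -0.55, -0.54, -0.55 and -0.29 in WT and -0.48, -0.42, -0.34 and -0.40 in Nkx2-1cKO. The WT replicate 4 value was above all the others, and the 3 other WT values were below all 4 Nkx2-1cKO values. Its estimate was 0.07 (-0.13 to 0.28). Rgs5, a regulator of G-protein signalling enriched in pericytes, had a larger SD in WT (-0.37 ± 0.36) than in Nkx2-1cKO (-0.33 ± 0.05), with a low value of -0.88 in WT replicate 1, and had a log2 fold change of 0.05.

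Anpep, which encodes the aminopeptidase CD13 of the pericyte surface, had the lowest p of the 37 genes. It was at -2.62, -2.78, -2.91 and -2.19 in WT and -3.08, -2.83, -2.98 and -2.95 in Nkx2-1cKO. Of the 4 WT values 3 were above all the Nkx2-1cKO values, and WT replicate 3 fell among them. The log2 fold change was -0.34 (-0.69 to 0.02), with an adjusted p of 0.598 and an exact two-sided permutation p of 0.0571, where 0.0286 is the smallest that 4 arrays against 4 can give. Within slide 1 it was -0.13 and within slide 2 -0.54, and it was -0.19 without WT replicate 4.

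Kcnj8 and Abcc9 encode the pore and the sulfonylurea receptor of the KATP channel of pericytes and are neighbours on chromosome 6 in the RefSeq table. Kcnj8 averaged 0.90 ± 0.15 in WT and 0.86 ± 0.12 in Nkx2-1cKO, with an estimate of -0.04. Abcc9 had a log2 fold change of -0.12 (-0.36 to 0.12), and its further probes gave -0.27 and -0.22. All 3 probes of Abcc9 and both probes of Kcnj8 had negative estimates, none past the threshold.

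Of the 5 erythroid genes measured, Alas2, Klf1, Gata1 and Slc4a1 had their lowest value on the same array, Nkx2-1cKO replicate 2, and Epor on another. The dim Gata1 probe was lowest there by a small margin, at -5.63 against -5.61 on WT replicate 4. The windows before the transcription starts of Alas2, Klf1, Gata1 and Epor are shown. Whether these sequences bear on the shared lowest array was not tested. No window was available for Slc4a1. GATA1 and KLF1 drive erythroid transcription, through GATA words and CACCC words respectively. The sequences are the 250 bases before the RefSeq start in GRCm38.p6, read 5′ to 3′ on the strand of the gene. Capitals mark a GATA word, which is AGATAA or, with its last base changed, AGATAG, or either of them starting with T, and the word CACCC, each on either strand, so that GGGTG is CACCC and TTATCT is AGATAA on the other strand. Alas2 lies at chrX:150547167-150547416 on the plus strand, Klf1 at chr8:84901732-84901981 on the plus strand, Epor at chr9:21963577-21963826 on the minus strand and Gata1 at chrX:7967911-7968160 on the minus strand.
Alas2: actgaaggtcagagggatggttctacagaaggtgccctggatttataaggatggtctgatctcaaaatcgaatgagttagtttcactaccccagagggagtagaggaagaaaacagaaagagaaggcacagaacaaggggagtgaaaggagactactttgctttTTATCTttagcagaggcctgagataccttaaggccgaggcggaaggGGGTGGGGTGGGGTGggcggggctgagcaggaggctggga
Klf1: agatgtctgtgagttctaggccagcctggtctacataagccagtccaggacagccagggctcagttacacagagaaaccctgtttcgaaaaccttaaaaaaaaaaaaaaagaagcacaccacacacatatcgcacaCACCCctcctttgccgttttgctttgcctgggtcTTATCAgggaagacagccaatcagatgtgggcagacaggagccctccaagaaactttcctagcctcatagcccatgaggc
Epor: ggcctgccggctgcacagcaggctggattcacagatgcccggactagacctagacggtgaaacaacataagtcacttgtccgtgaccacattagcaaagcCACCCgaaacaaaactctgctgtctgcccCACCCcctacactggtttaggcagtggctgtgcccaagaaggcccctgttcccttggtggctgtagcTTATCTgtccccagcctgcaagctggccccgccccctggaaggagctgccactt
Gata1: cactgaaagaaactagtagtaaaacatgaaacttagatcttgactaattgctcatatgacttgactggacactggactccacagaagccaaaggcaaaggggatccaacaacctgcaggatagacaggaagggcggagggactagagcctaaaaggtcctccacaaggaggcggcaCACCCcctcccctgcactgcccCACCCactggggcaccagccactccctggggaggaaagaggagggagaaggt
A GATA word begins 86 bases before the start of Alas2, 80 before that of Klf1 and 54 before that of Epor, and none lies in the Gata1 window. CACCC words occur in all 4 windows, with 3 adjacent copies 40, 35 and 30 bases before the Alas2 start. Of 32851 windows of this length in the table, 26.5% held a GATA word and 52% a CACCC word. A GATA word occurred in 4 of 6 windows of erythroid members, 0 of 10 of endothelial, 2 of 4 of pericyte and 5 of 10 of microglial members, some genes having more than 1 window in the table and others none. A CACCC word occurred in 5 of 6 erythroid, 8 of 10 endothelial, 3 of 4 pericyte and 7 of 10 microglial windows. The PU.1-type word GAGGAA occurred in 3 of 6, 5 of 10, 1 of 4 and 6 of 10 windows in the same order, and in 23.3% of all windows. The ETS word CCGGAA, which also ends in GGAA, occurred in 0 of 6, 1 of 10, 0 of 4 and 1 of 10, and in 12% of all windows. A match of letters does not show binding.

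The 5 measured erythroid genes had a median log2 fold change of -0.04, with 2 higher and 3 lower in Nkx2-1cKO, and the median was 0.08 with centring on the median and 0.15 with normexp. Their residual SD had a median of 0.467 on the log2 scale, against 0.182 for the endothelial genes, 0.166 for the microglial genes and 0.219 for all tested probes. Over the 5 genes it ran from 0.217 for Epor to 0.599 for the dim Gata1 probe. Alas2, the erythroid enzyme that starts haem synthesis, was at 1.12, 1.90, 1.26 and 1.32 in WT and 1.49, 0.98, 1.55 and 1.42 in Nkx2-1cKO. The highest array was WT replicate 2 and the lowest Nkx2-1cKO replicate 2, so the groups overlapped, and the other 3 WT arrays lay below the other 3 Nkx2-1cKO arrays. The estimate was -0.04 (-0.45 to 0.37).

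Slc4a1 encodes band 3, the anion exchanger of the red cell membrane. It was at -0.59, -0.04, -0.79 and -0.82 in WT and -0.47, -1.17, -0.04 and 0.03 in Nkx2-1cKO, a log2 fold change of 0.15 (-0.46 to 0.75). The Nkx2-1cKO group held both the lowest and the highest of the 8 values. Klf1 was at -3.56, -3.47, -4.22 and -4.09 in WT and -3.04, -4.71, -3.78 and -3.76 in Nkx2-1cKO, again with both extremes in Nkx2-1cKO. Its log2 fold change was 0.01 (-0.72 to 0.75), made up of -0.34 on slide 1 and 0.37 on slide 2.

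Epor, the erythropoietin receptor, averaged -1.65 ± 0.20 in WT and -1.84 ± 0.23 in Nkx2-1cKO, with a log2 fold change of -0.19 (-0.52 to 0.14). Gata1 was at -3.89, -5.25, -5.50 and -5.61 in WT and -5.56, -5.63, -5.51 and -5.01 in Nkx2-1cKO. The WT replicate 1 array, on which dim probes were bright, stood above the other 7. With it the log2 fold change was -0.37, and without it 0.03, so the lowest estimate among the members rests on that array.

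Nkx2-1cKO replicate 2 held the lowest value of 4 of the 5 erythroid members, where 12.2% of all tested probes were lowest on that array. For Gata1 the margin was small. The summed level of the 5 genes ranged from a log2 of 1.72 to 2.37 on the WT arrays and from 1.45 to 2.09 on the Nkx2-1cKO arrays. Among 16 other erythroid genes with a tested probe the same array was lowest for 8. None of these 16 passed the test or had an unadjusted p below 0.05. Of the 16, 5 were higher and 11 lower, with a median of -0.13, which was 0.35 with normexp background correction. The 3 of them with the brightest probes were globin genes. Hba-a1, adult alpha globin, whose near-identical copy may share the probe, was at 6.37, 6.93, 6.53 and 6.56 in WT and 6.71, 6.41, 7.07 and 6.69 in Nkx2-1cKO. Hbb-y and Hba-x, embryonic globins, had log2 fold changes of 0.23 (-0.09 to 0.54) and 0.15 (-0.30 to 0.60), and Hba-a1 one of 0.12 (-0.22 to 0.46). All 3 were below their own means on WT replicates 1, 3 and 4 and on Nkx2-1cKO replicate 2, and above them on WT replicate 2 and Nkx2-1cKO replicates 3 and 4. The deviation of Hba-x on WT replicate 4 was only -0.0005. A further globin gene, Hbb-bh1, named after its values were seen, had the same signs except on WT replicate 1, where it was 0.28 above its mean. On Nkx2-1cKO replicate 2 its deviation was -0.04.

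**Figure D2:**
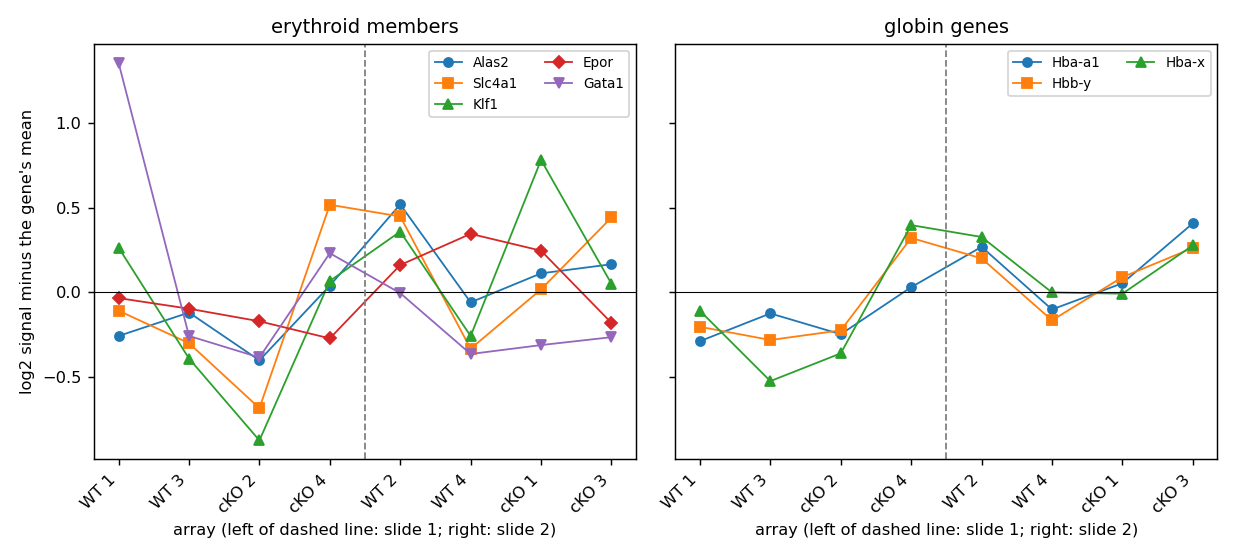
Log2 signal of each gene minus its mean over the 8 arrays (y axis) on each array (x axis, slide 1 left and slide 2 right of the dashed line), for the 5 erythroid members (left) and 3 globin genes (right). Nkx2-1cKO replicate 2 (cKO 2) lies below 0 for all 8 genes, WT replicate 2 (WT 2) lies above 0 for every gene but Gata1, and Gata1 alone peaks on WT replicate 1 (WT 1).

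The 12 microglial genes had a median log2 fold change of 0.04, with 7 higher and 5 lower in Nkx2-1cKO, while 11 of 12 were higher with centring on the median and all 12 with normexp. Csf1r, the receptor on which microglial survival depends, was at -0.99, -1.04, -1.08 and -0.87 in WT and -0.98, -0.85, -0.83 and -1.04 in Nkx2-1cKO. The values were interleaved, and the log2 fold change was 0.07 (-0.14 to 0.28), with further probes at -0.02 and -0.46, the latter dim. Cx3cr1, the fractalkine receptor, had a log2 fold change of 0.07 (-0.22 to 0.35), with a dim further probe at -0.69 (adjusted p = 0.704). Csf1r lies next to Pdgfrb on chromosome 18 in the RefSeq table.

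Tyrobp, the signalling adaptor DAP12, was the steadiest of the members. It was at 0.01, 0.04, 0.08 and 0.14 in WT and 0.12, 0.14, 0.09 and 0.05 in Nkx2-1cKO, with a residual SD of 0.0483. Its estimate was 0.03 (-0.13 to 0.20). Its partner receptor Trem2 had a log2 fold change of 0.07 (-0.15 to 0.28), and the Fc receptor gamma chain gene Fcer1g one of -0.04 (-0.30 to 0.22).

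C1qb, C1qc and C1qa, the chains of complement C1q, follow each other on chromosome 4. Their log2 fold changes were -0.03 (-0.31 to 0.25), 0.04 (-0.15 to 0.23) and -0.02 (-0.31 to 0.26). C1qb was at -1.47, -1.32, -1.58 and -1.51 in WT and -1.60, -1.61, -1.17 and -1.62 in Nkx2-1cKO, with replicate 3 above the 3 other Nkx2-1cKO arrays. Neither C1qa nor C1qc shared that gap.

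P2ry12, a purinergic receptor that marks microglia rather than other macrophages, had the highest estimate of all 37 genes. It was at -1.71, -1.88, -1.76 and -2.40 in WT and -1.94, -1.54, -1.75 and -1.30 in Nkx2-1cKO. WT replicate 4 was lowest and Nkx2-1cKO replicate 4 highest, with the other arrays overlapping. The log2 fold change of 0.31 (-0.10 to 0.72) had an adjusted p of 0.651, was 0.31 on slide 1 and 0.30 on slide 2, and was 0.15 without WT replicate 4.

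Aif1, which encodes the actin-binding protein IBA1, had a log2 fold change of 0.11 (-0.31 to 0.52), and its further probe gave 0.23. Ptprc, the gene of the leukocyte phosphatase CD45, had a log2 fold change of -0.08 (-0.44 to 0.28), and a dimmer probe, well above background on 4 WT and 2 Nkx2-1cKO arrays, gave -0.87 (adjusted p = 0.643). Itgam, the gene of CD11b, was at -3.96, -5.86, -6.05 and -5.69 in WT and -5.71, -5.60, -6.27 and -5.19 in Nkx2-1cKO. Its WT replicate 1 value was again far above the rest, and the log2 fold change of -0.30 became 0.18 without that array. Levels of the 12 microglial genes summed to a log2 of 2.27 to 2.35 on the WT arrays and 2.37 to 2.38 on the Nkx2-1cKO arrays, and no test was made of the sums. Their mean log2 level overlapped, from -1.82 to -1.70 on the WT arrays and from -1.81 to -1.72 on the Nkx2-1cKO arrays.

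**Figure D3:**
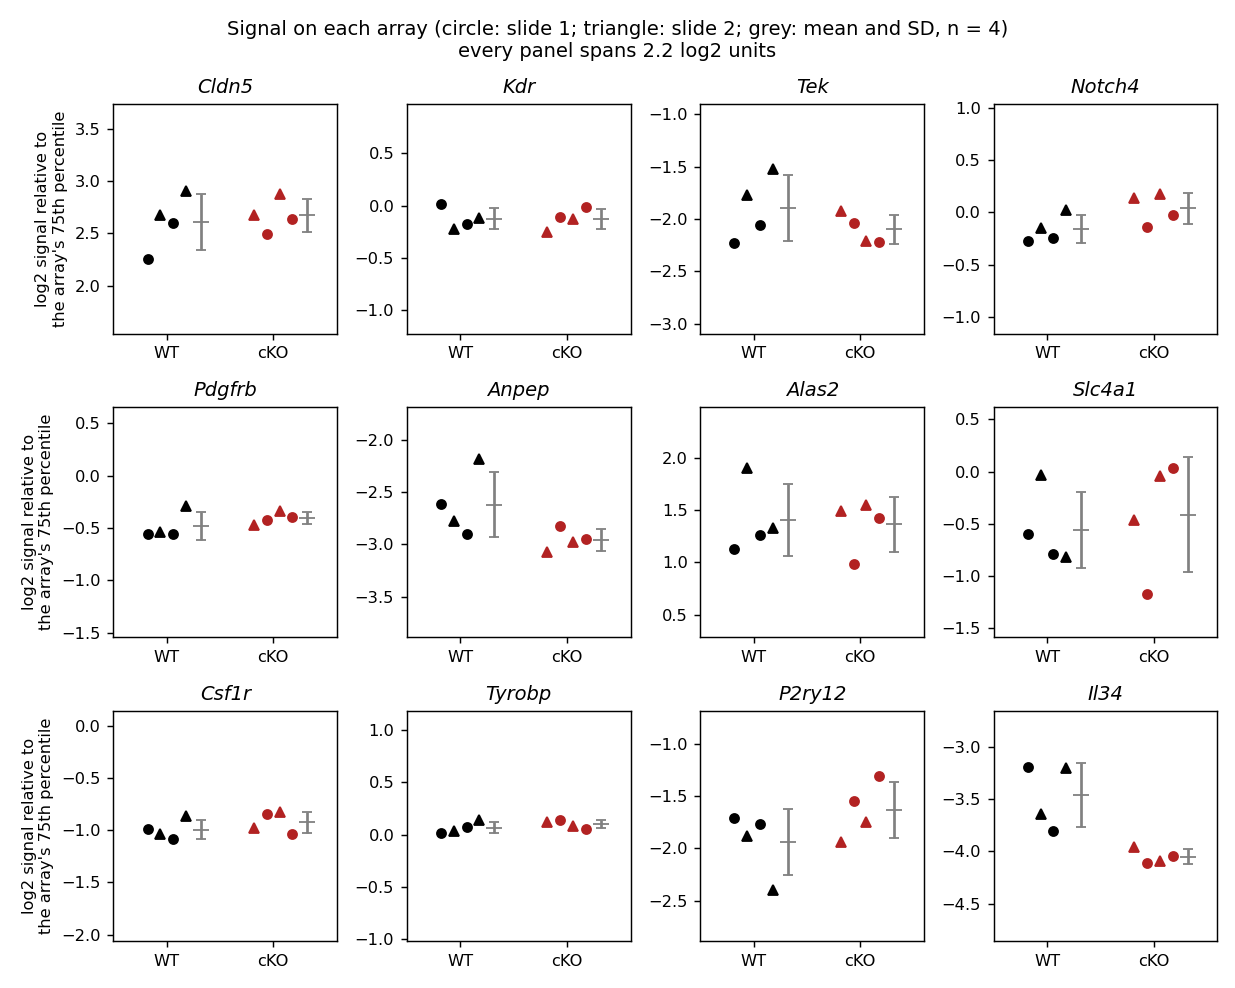
Log2 signal relative to the array's 75th percentile (y axis) of 11 members and the ligand gene Il34 in WT (black) and Nkx2-1cKO (red; cKO), with circles for slide 1, triangles for slide 2 and the mean and SD of 4 arrays in grey. The WT and Nkx2-1cKO points overlap in every panel but that of Il34.

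The ligands of the member receptors were measured beside their receptors. All 12 had a tested probe, 0 of 12 passed the test in limma, and by its brightest probe 1, Il34, had an unadjusted p below 0.05. The median log2 fold change was -0.03, with 5 higher and 7 lower. Among ligands of the VEGF receptors, Vegfa had a log2 fold change of 0.19 (-0.26 to 0.64), Vegfb one of 0.18 (-0.21 to 0.56), with a further probe at 0.32 (unadjusted p = 0.0479, adjusted p = 0.576 in limma), and Pgf one of -0.01 (-0.28 to 0.27). Of the TIE2 ligands, Angpt2 had a log2 fold change of 0.08 (-0.26 to 0.41) and Angpt1 one of -0.16 (-0.99 to 0.68), with a WT replicate 1 value of -2.82 against -4.64 to -4.17 on the other WT arrays. The Notch ligands Dll4 and Jag1 had log2 fold changes of -0.30 (-0.81 to 0.20) and 0.01 (-0.21 to 0.23). Jag1 had 2 tested probes, and its estimate ran from -0.28 to 0.13 over the alternatives, which include the mean of a gene's probes. Pdgfb, the pericyte recruitment signal, differed by -0.16 (-0.52 to 0.20) on the same scale. Epo, the ligand of the erythropoietin receptor, was well above background on 3 WT and 2 Nkx2-1cKO arrays, and its interval, -3.23 to 0.74, sets little bound.

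Il34, which with Csf1 supplies the ligands of CSF1R, was the ligand with the lowest p. It was at -3.19, -3.64, -3.81 and -3.21 in WT and -3.95, -4.11, -4.09 and -4.05 in Nkx2-1cKO. All 4 Nkx2-1cKO values were below all 4 WT values. The log2 fold change was -0.59 (-0.97 to -0.21), -0.58 on slide 1 and -0.60 on slide 2, with an exact two-sided permutation p of 0.0286, the smallest this design can give. The adjusted p was 0.251 and ran from 0.167 to 0.985 over the alternatives, and with normexp background correction the estimate was 0.03. Csf1 had a log2 fold change of 0.14 (-0.09 to 0.37), and Cx3cl1, the fractalkine gene, one of -0.06 (-0.27 to 0.14).

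None of the further genes of the same cell types passed the threshold in limma. Of 22 other endothelial genes 14 were higher and 8 lower, with a median of 0.04. The tight junction gene Ocln, named after its values were seen, was the 1 gene with an unadjusted p below 0.05 and the 1 without overlap, at a log2 fold change of -0.56 (adjusted p = 0.459). Egfl7, a secreted endothelial protein, Ramp2, an adrenomedullin co-receptor, and Cd34, a sialomucin, had log2 fold changes of 0.22, 0.09 and 0.01. Of 19 other macrophage and microglial genes 8 were higher and 11 lower, with a median of -0.09, and with normexp all 19 were higher. An unadjusted p below 0.05 was reached by 2 of them. Of the 19, the myeloid transcription factor genes Spi1 and Irf8, named after their values were seen, had groups that did not overlap, at log2 fold changes of -0.35 and -0.21. Ctss and Ly86 had log2 fold changes of 0.19 and 0.15.

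All 11 other mural cell genes with a tested probe had a lower mean in Nkx2-1cKO, with a median log2 fold change of -0.27, while 4 of 11 were lower with normexp and 8 of 11 with centring on the median. None passed the threshold or had an unadjusted p below 0.05, and WT replicate 4 was highest for 5 of the 11. Acta2, the smooth muscle actin gene, had a log2 fold change of -0.05, Vtn, a pericyte-enriched vitronectin gene, one of -0.22, and Cspg4, the gene of the NG2 proteoglycan also made by oligodendrocyte precursors, one of -0.27. Genes of meninges and mesenchyme stood high on the WT replicate 4 array. Of 7, 0 passed the test and 1 had an unadjusted p below 0.05, and their median log2 fold change was -0.85, or -0.17 without that array. That array was highest for 6 of 7 of them, and their summed level there was a log2 of 2.81, against -0.24 to 0.52 on the other WT arrays and -0.34 to 0.48 on the Nkx2-1cKO arrays. The collagen genes Col3a1, Col1a2 and Col1a1 were at 1.26, 0.87 and -0.90 on that array and at means of -0.77, -0.98 and -3.11 over the 4 WT arrays. Without WT replicate 4, 10 of 11 other mural genes were lower, with a median of -0.32, and the endothelial median was 0.09. Of choroid plexus genes, Otx2, Folr1 and Kcne2 had log2 fold changes of 0.12, 0.04 and -0.07, with 0 of 5 past the threshold and a median of -0.07. The study also names Otx2 beside Nkx2-1 at the start of MGE fate, so its signal need not come from choroid plexus. Ttr, the defining choroid plexus gene, was well above background on at most 2 arrays.

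Many endothelial genes shared their highest or lowest array. WT replicate 4 held the highest value of 8 of the 15 endothelial genes, and Nkx2-1cKO replicate 3 that of 4, both on slide 2. These arrays held the highest value of 10.4% and 15.8% of all tested probes. WT replicate 1 held the lowest value of 7 of the 15 and WT replicate 3 that of 4, both on slide 1. Of all tested probes, 15.7% and 9.85% were lowest on these arrays. WT replicate 1 also held the highest value of 2 of the 15. The summed endothelial level ranged from a log2 of 4.35 to 4.60 on the WT arrays and from 4.37 to 4.62 on the Nkx2-1cKO arrays.

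**Figure D4:**
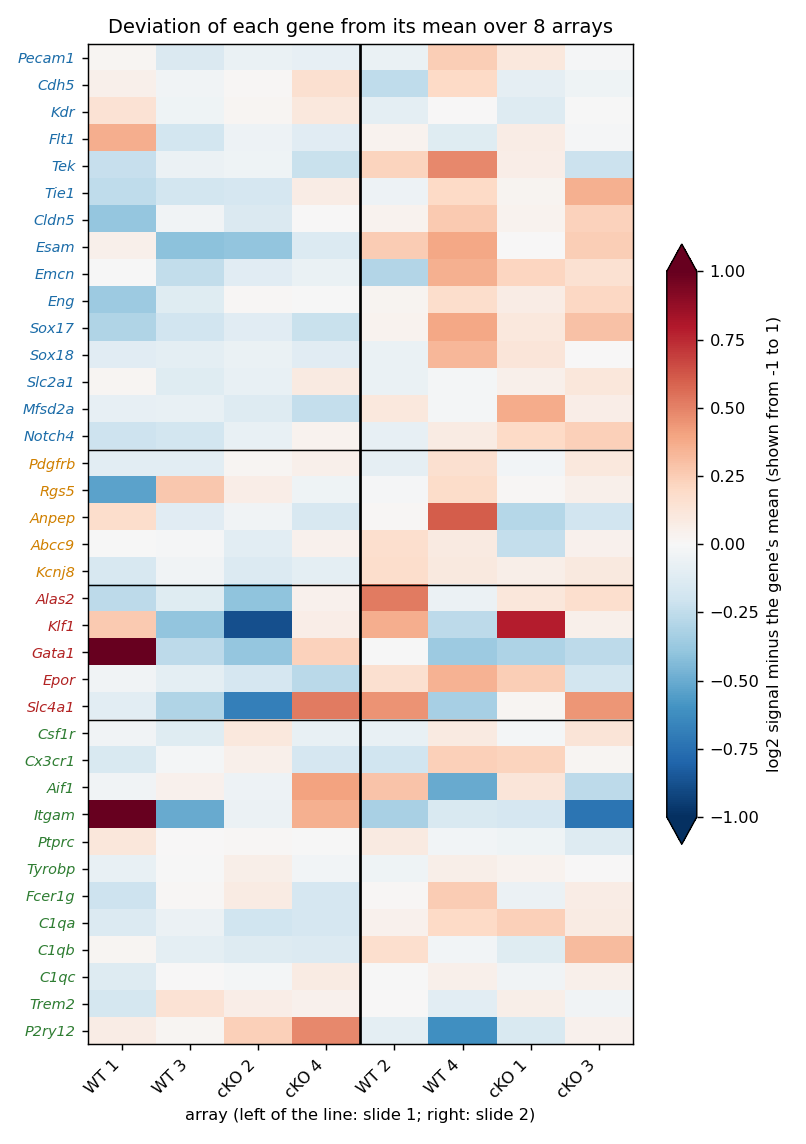
Deviation of each of the 37 genes (y axis, coloured by cell type) from its own mean over 8 arrays, in log2 units from -1 (blue) to 1 (red), with arrays on the x axis in order of slide and group. Endothelial rows are redder on slide 2, most of all on WT replicate 4 (WT 4), and the dark cells of Gata1 and Itgam on WT replicate 1 (WT 1) exceed the colour range.

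Each slide held 2 WT and 2 Nkx2-1cKO arrays, so the slide could be tested beside the genotype. Between slide 2 and slide 1, 4 of 37 genes passed an adjusted p of 0.05, where 14.3% of all tested probes did in either direction. All 4 were higher on slide 2, where 5.96% of all tested probes were called in that direction. They were Esam, with a difference of 0.45 on the log2 scale (adjusted p = 0.0412), Sox17 with 0.41 (0.0301), C1qa with 0.28 (0.0480) and Kcnj8 with 0.22 (0.0476). The count was 16 with centring on the median, 2 with no filter on dim probes and 0 with no variance trend. The median difference between slides was 0.22 over the endothelial genes, 0.29 over the erythroid, 0.07 over the pericyte and 0.03 over the microglial genes, and -0.04 over all tested probes. Of the ligands, Vegfa and Vegfb were also higher on slide 2, by 0.50 and 0.47 (adjusted p = 0.0260 and 0.00437). The sign of the genotype difference was the same on both slides for 22 of the 37 genes.

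**Figure D5:**
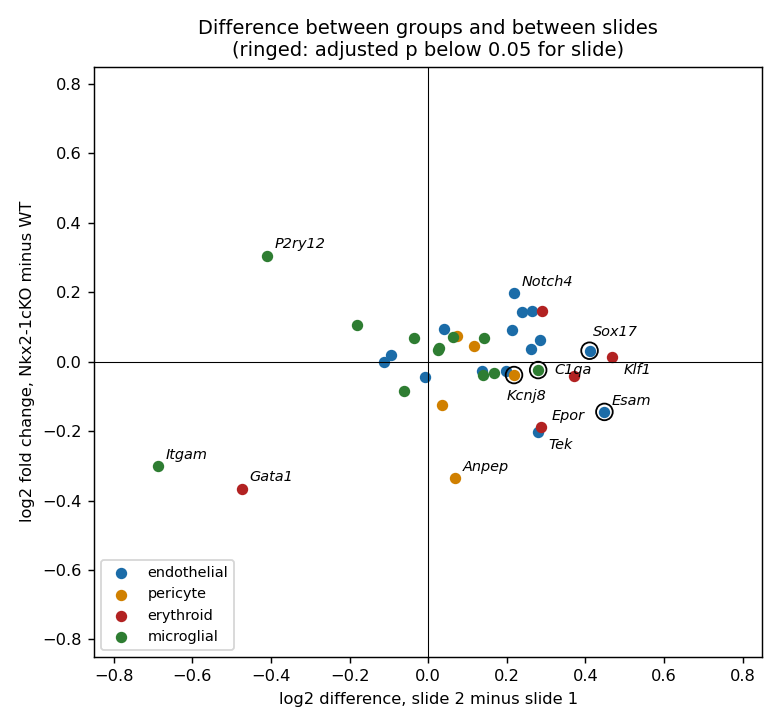
Log2 difference between slide 2 and slide 1 (x axis) against the log2 fold change between Nkx2-1cKO and WT (y axis) for the 37 genes, coloured by cell type, with rings around the 4 genes past an adjusted p of 0.05 for slide. Most endothelial points lie to the right of 0 and close to 0 on the y axis.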

How the data were processed

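RNA from the dissected MGE of 4 WT and 4 Nkx2-1cKO samples was hybridised to Agilent one-colour arrays, 1 per sample. The authors deposited Feature Extraction output, whose processed spot intensity is background-subtracted but not scaled from array to array. The version is 10.7.3.1 per the file headers and 10.1 in the submitters' processing notes. No spot was saturated. From these deposited intensities the log2 was taken relative to each array's 75th percentile, after control and outlier spots were left out, and replicate spots were averaged. Accessions tied 24844 of the 41174 probes to 17178 symbols of a RefSeq table (GRCm38.p6). Between 29283 and 32733 probes per array were well above background. Probes well above background on at least 4 arrays, 31283 in all, were fitted with lmFit and eBayes with a variance trend (limma 3.58.1, R 4.3.3) and Benjamini-Hochberg adjustment at 0.05, using all 8 arrays with no covariate. There were 53 missing values. The fit was first tested on simulated data.

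For a gene with several tested probes, the brightest on average was used. The text names every member, every measured ligand, Nkx2-1, and of each other list the genes past the threshold and the 3 with the brightest probe. A few genes that this rule names are not reported here. The lists were ligands of the member receptors, other endothelial, other mural, other erythroid, other macrophage and microglial genes, meninges and mesenchyme, choroid plexus, and ventral forebrain neurons and progenitors. The members and lists were chosen with earlier results of these data known. The slide comparison is the slide term of a fit with genotype and slide. Same-numbered WT and Nkx2-1cKO samples deviated in opposite directions (correlations -0.481 to -0.194). They always lay on different slides and slide was not removed, so these correlations cannot show whether the numbers mark pairs. The fit as reported did not take the numbers as pairs. Alternatives covered scaling, background correction, the filter, blocks, the variance trend, array weights, the choice of probe and leaving out each array. Normexp was run on the median spot signal with an offset of 50. The scaling and left-out-array checks of the other lists were added after seeing the data.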

Additional observations from a re-analysis of the deposited data

Results flagged for a closer look

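Among the 37 members and 12 ligands, 98 groups of 4 arrays were examined for a value far from the other 3, and 5 were found, where chance flags about 1 in 20 groups, or 4.9 of 98. Sox18 on WT replicate 4 was at -0.454, against -0.90 to -0.85 on the other WT arrays. Pdgfrb on the same array was at -0.286, against -0.55 to -0.54. Itgam on WT replicate 1 was at -3.956, against -6.05 to -5.69. C1qb on Nkx2-1cKO replicate 3 was at -1.172, against -1.62 to -1.60 on the other Nkx2-1cKO arrays. The ligand gene Csf1 on Nkx2-1cKO replicate 1 was at -1.301, against -1.47 to -1.46. All 5 values were high. WT replicate 4 was also the array on which meningeal and mesenchymal genes were high, and WT replicate 1 the one on which dim probes were bright. Their part in these values was not tested.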

How the results depend on the processing

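Under each of the 18 alternatives, 0 of the 37 members passed the threshold in either direction between Nkx2-1cKO and WT, and the lowest adjusted p of any member was 0.270 (Notch4, slide as a block). An unadjusted p below 0.05 was reached by at most 2 members under an alternative, and by none in the fit as reported. The replicate block gave 0 members and changed no call among them, while 72 probes passed over the whole array, against 324 without it. Leaving out each array in turn gave 0 members each time, and the median log2 fold change then ran from -0.00133 to 0.0888 for endothelial, -0.125 to 0.0149 for pericyte, -0.246 to 0.125 for erythroid and 0.0154 to 0.0435 for microglial genes. Scaling and background correction moved the common level. The median of all tested probes went from -0.04 to 0.08 with centring on the median and to 0.18 with normexp background correction, and 10 and 16 of the 37 members then changed sign. The pericyte median became 0.0817 and 0.0761. The microglial median became 0.157 with centring on the median, 0.0992 with normexp and -0.0282 with the mean of a gene's probes. Between slides, 16 members passed with centring on the median, 2 with no filter on dim probes and 0 with no variance trend, against 4 as reported. The cause of these moves was not tested. The estimates of Gata1 and Itgam changed sign without WT replicate 1.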
